A study of Drosophila melanogaster with 3 samples.

Results

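The genes Trl, psq and Clamp encode 3 DNA-binding proteins of Drosophila melanogaster that bind GA-rich sequence, and the peaks of another DNA-binding protein, CG18262, at and near them are described here. The 3 genes were picked from 13945 protein-coding genes by function and with their peaks in these lists already known, so the choice was made from the readout itself and no test was applied to their peaks. Every summit inside a gene or within 5 kb of it was taken, which gave 16 of the 8529 summits in the authors' thresholded list: 4 at Trl, 12 at psq and 0 at Clamp. All 3 genes were found by symbol in the annotation.

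The data came from chromatin immunoprecipitation followed by sequencing (ChIP-seq) in whole embryos of both sexes, collected between 0 and 16 hours of age. The embryos were from 1 transgenic line that stably carried CG18262 with green fluorescent protein (GFP) at its C-terminus, and DNA was recovered with an antibody against GFP. The 3 biological replicates formed 1 group with the same genotype and no treatment, so no groups were compared. An untagged line and the control alignments were not analysed here, and signal of the fusion protein cannot be told apart from signal that the antibody would give without it. The promoter that drives the fusion is not named in the labels, and peaks from whole embryos mix all cell types of these stages.

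The authors deposited a peak list for each replicate and for the pooled reads. They also gave a shorter list, called thresholded here, of the peaks that passed the irreproducible discovery rate (IDR), a measure of how alike peaks rank in replicates. Each list gives the span, summit and signal value of a peak. The signal value is the authors' own, its scale is not stated, and it served only to rank peaks within a list, with rank 1 the strongest. The replicate and pooled lists held 30000 peaks each, and the thresholded list was identical to the 8529 strongest pooled peaks, so a thresholded rank is also a pooled rank. Thresholded values therefore have no replicates of their own, and the rank in each of the 3 replicate lists is given beside them. The files give no read counts used here, so the depth behind a peak is unknown.

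Trl encodes GAGA factor, a protein with a BTB domain for self-association and a zinc finger that binds GAGAG, which opens chromatin at many promoters and is counted among the Trithorax group. Pipsqueak, the product of psq, also carries a BTB domain, binds GA repeats through its Psq domains, and has been linked to Polycomb response elements and to oogenesis. CLAMP is a zinc finger protein that binds long GA repeats and brings the male-specific lethal (MSL) complex of dosage compensation to the X chromosome. All 3 proteins are present in the early embryo, and their binding sites overlap in part.

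The sequences at the summits on 3L and 2L were read from the RefSeq dm6 assembly on the plus strand and are shown so that the letters under the signal can be compared with a true GA repeat of the same locus. In the 3 Trl summit sequences and in the Clamp sequence, capitals mark runs of at least 8 bases made only of A and T. The strongest Trl sequence holds 5 such runs over its 251 bases, the longest of 14 bases, and no GAGAG on either strand. Within 50 bp of its summit the longest run is 8 bases. Over all thresholded summits the median longest run in that window was 11 bases, and 80.9% had a run of at least 8. The last Trl sequence is not under a summit. It is intron sequence directly upstream of the innermost Trl start site, and its capitals mark GAGAG and its reverse complement CTCTC, of which it holds 11 copies, overlaps counted.
Trl strongest summit, chr3L:14759396-14759646: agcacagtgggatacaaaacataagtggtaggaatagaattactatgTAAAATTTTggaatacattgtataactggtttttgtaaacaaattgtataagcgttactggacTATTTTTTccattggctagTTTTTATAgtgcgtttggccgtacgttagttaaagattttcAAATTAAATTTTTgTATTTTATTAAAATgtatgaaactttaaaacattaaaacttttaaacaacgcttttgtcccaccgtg
Trl summit in the intron shared by all transcripts, chr3L:14756063-14756213: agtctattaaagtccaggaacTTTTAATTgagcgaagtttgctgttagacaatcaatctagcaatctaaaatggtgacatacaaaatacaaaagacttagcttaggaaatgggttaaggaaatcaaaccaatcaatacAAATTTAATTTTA
Trl summit beside Tsen34, chr3L:14760400-14760519: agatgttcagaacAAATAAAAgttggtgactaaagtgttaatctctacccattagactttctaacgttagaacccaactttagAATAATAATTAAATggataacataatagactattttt
Trl GA-repeat intron, chr3L:14757337-14757483: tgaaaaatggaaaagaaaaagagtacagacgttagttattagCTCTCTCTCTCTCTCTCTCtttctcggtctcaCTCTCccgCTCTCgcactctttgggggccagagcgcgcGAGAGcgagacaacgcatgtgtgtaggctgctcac
Clamp strongest pooled summit, chr2L:22168653-22168803: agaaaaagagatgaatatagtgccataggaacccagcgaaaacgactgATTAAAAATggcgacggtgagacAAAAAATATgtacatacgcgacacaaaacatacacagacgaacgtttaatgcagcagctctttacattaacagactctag

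The 3 Trl summit sequences shown hold 71.3%, 70.2% and 72.5% A and T. They differ in length, at 251, 151 and 120 bases, and the last is not centred on its summit. These shares are therefore not of like windows, and they differ in window from shares within 50 bp. At 14756138 the capitals lie towards the ends of the sequence, and the longest run of A and T within 50 bp of the summit is 6 bases. The Trl summit at 14757196, in a 5' UTR and not shown, had the lowest share of the 4 within 50 bp, at 60.4%, with a longest run of 7 bases. The Clamp sequence holds 60.9% A and T with 2 runs of at least 8 bases, and the GA-repeat intron of Trl holds 49.0%.

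Trl (FBgn0013263) spans 14747929 to 14761049 on 3L, on the minus strand, and has 10 transcripts from 4 start sites. Of these transcripts 7 start at 14757962. The others, Trl-RA, Trl-RJ and Trl-RF, start at 14757779, 14757336 and 14761049. The distal start of Trl-RF lies inside Tsen34, a gene for a subunit of the tRNA splicing endonuclease, which spans 14760520 to 14761844 on the same strand. CG42507 is annotated from 14747929 to 14757962, over most of Trl, so summits there lie in both genes. Mgat4a, a glycosyltransferase gene, lies 979 bp beyond the distal end of Trl, and ome, a dipeptidyl peptidase gene, lies 61 bp beyond the other end.

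The strongest Trl summit was among the strongest of the whole experiment. It lay at 14759521 in a peak from 14759122 to 14759925, ranked 14 of 8529 with a signal value of 8340, and ranked 16, 20 and 8 in replicates 1, 2 and 3, a mean rank of 14.7 ± 6.11 (SD, n = 3). The replicate summits were within 4 to 6 bp of it. Its signal value in the replicate lists was 2400, 2020 and 3979. At 804 bp the peak was also wide, and 2.03% of thresholded peaks were at least as wide. The summit lay in the long first stretch of the gene, 1559 bp upstream of the start shared by 7 transcripts and 1528 bp downstream of the Trl-RF start. It was thus in an intron of Trl-RF and upstream of the other 9 transcripts.

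The other 3 thresholded summits of Trl lay on both sides of the main starts. The summit at 14756138 ranked 1097, with ranks of 1286, 1470 and 951 in the replicates. It lay in an intron of all 10 transcripts, 1198 bp downstream of the innermost start. The summit at 14757196 ranked 1860, with replicate ranks of 2562, 2025 and 1623. It was in the 5' UTR of all 10 transcripts and 140 bp downstream of the innermost start, and was the only 1 of the 16 summits in an exon. The summit at 14760475 ranked 3258, with replicate ranks of 5850, 2737 and 2625. It lay in the Trl-RF intron, 574 bp downstream of that start and 45 bp beyond the end of Tsen34.

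All 4 Trl summits were therefore within 2 kb of a Trl start site, and 1 of them was within 500 bp. All 4 had a summit within 100 bp in each replicate list. The order of the 4 by rank was the same in replicates 1, 2 and 3 and in the pooled list. Weaker summits, at pooled ranks of 9963 and 16935, lay upstream of the 14757962 start at 14758330 and 14758535. Both were matched in 2 of 3 replicate lists, and neither was in the thresholded list. No thresholded summit lay in coding sequence or between 14756138 and the gene end, and the nearest one outside the scanned region was 15941 bp beyond the gene end, at rank 5432.

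**Figure D1:**
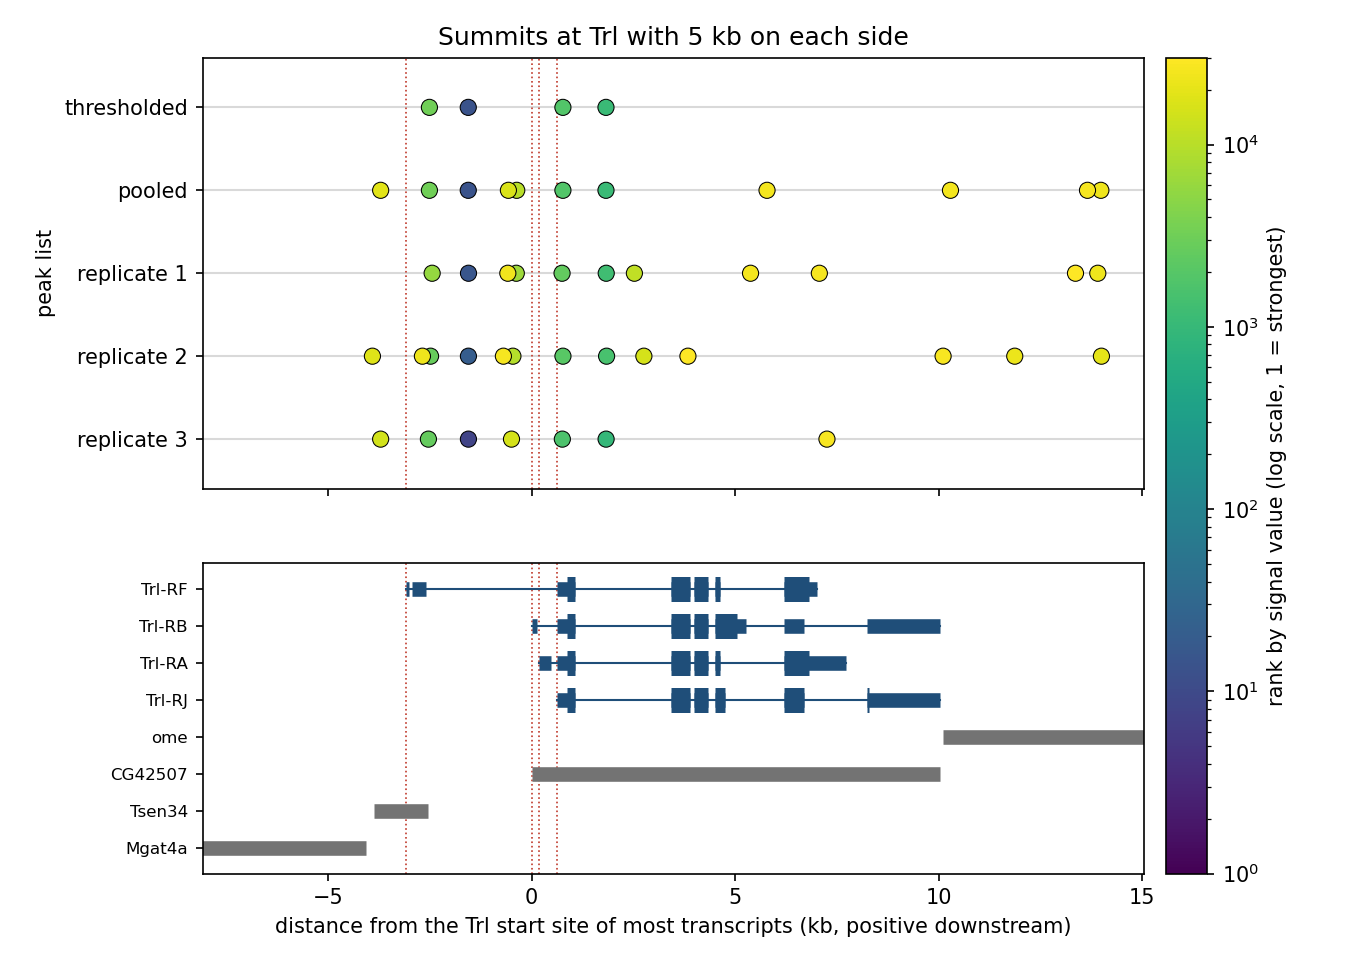
Summits at Trl in each peak list (points, coloured by rank on a log scale) against distance from the start site of most transcripts (kb), over 4 transcripts that represent the 4 start sites (dotted lines), with neighbouring genes in grey. The same 4 places are held in all 5 lists, and the summit of rank 14 lies between the Trl-RF start and the other starts.

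Trl had more summits than most genes of its length, though many such genes had as many. A count of at least 4 thresholded summits within 5 kb was found at 10.1% of all protein-coding genes (1410 of 13945). Among 570 genes of 0.8 to 1.2 times its length, the median was 2 and 19.1% had at least 4. Per 10 kb scanned, Trl had 1.73 summits and those genes a median of 0.801.

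psq (FBgn0263102) spans 10557888 to 10617280 on 2R, on the plus strand, a length of 59393 bp. Its 15 transcripts start at 5 sites, with 6 transcripts from the first at 10557888 and 5 from the last at 10583686. The sites between them are 10568942, 10569222 and 10569954. Beyond the last start, the annotation places a copy of the Tirant transposable element from 10585613 to 10594139 in the intron. CG11883 lies 382 bp beyond the gene end.

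The strongest psq summit stood alone in the middle of the gene. It lay at 10582270 in a peak from 10581938 to 10582586, ranked 403 with a signal value of 2617, and ranked 393, 550 and 360 in replicates 1, 2 and 3, a mean rank of 434.3 ± 101.5 (SD, n = 3). Its replicate summits lay 12, 92 and 18 bp away. Of thresholded peaks 4.98% were at least as wide as its 649 bp. It lay 1416 bp upstream of the last start, from which 5 transcripts run, and in an intron of the other 10. No other thresholded summit was within 5 kb of it.

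Most of the other psq summits were crowded between the first and the second start. That stretch of 11054 bp held 7 of the 12 thresholded summits, and 9, 13, 11 and 11 summits of the pooled list and of replicates 1, 2 and 3. Its strongest summit was at 10559336, 1448 bp downstream of the first start, at rank 1634 and replicate ranks of 3372, 2320 and 1098. The summit at 10566437 followed at rank 2589, with replicate ranks of 3814, 2389 and 2326. The summits at 10563128 and 10563328 ranked 3848 and 6555 and lay 200 bp apart, beside the smallest gap of 199 bp between summits in any list. Replicate 2 placed a single summit between them, within 100 bp of the former and 105 bp from the latter. The remaining summits of the stretch, at 10564190, 10567341 and 10568452, ranked 7968, 5348 and 4365.

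The psq summits near a start site were not among its strongest. The summit at 10557816, 72 bp upstream of the first start, ranked 6596, and 14455, 8026 and 5055 in the replicates. At the summit at 10568452, 490 bp upstream of the second start, the nearest replicate summits ranked 15378, 10199 and 3693. Stronger summits lay slightly farther off in replicate 1, at 10568331 with rank 5497, and in replicate 2, at 10568342 with rank 5576. These were the only psq summits within 500 bp of a start. Over all protein-coding genes, 26.7% had a thresholded summit within 500 bp of a start site. Both Trl and psq did and Clamp did not. Any start site of a gene counted here, and Trl has 4, psq 5 and Clamp 1, which was not accounted for. With the outermost start alone, Trl had 0 such summits and psq 1.

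A further summit lay 4160 bp upstream of the gene at 10553728, at rank 3658 and replicate ranks of 6903, 5053 and 2315. The next one outward, 6596 bp upstream at rank 7333, fell outside the scanned flank. Downstream of the last start the long intron shared by all 15 transcripts held 2 thresholded summits. The one at 10601628 ranked 4539, with replicate ranks of 5572, 4245 and 5038. The one at 10604143 ranked 8172, near the end of the list. The last 13137 bp of the gene, measured from that summit, hold the coding exons common to the transcripts. They had no thresholded summit by definition, 1 pooled summit and 5, 2 and 1 summits in the replicates. The pooled summit, at 10604345, lay close to the thresholded one, at the edge of this stretch. So did those of replicate 2, at 10604157 and 10604362, and of replicate 3, at 10604162. Only replicate 1 had summits farther in, the last at 10609583. No list had a summit in the Tirant element. Over all thresholded summits 0.317% lay in annotated transposable elements, and how reads from repeated copies were placed was not tested.

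**Figure D2:**
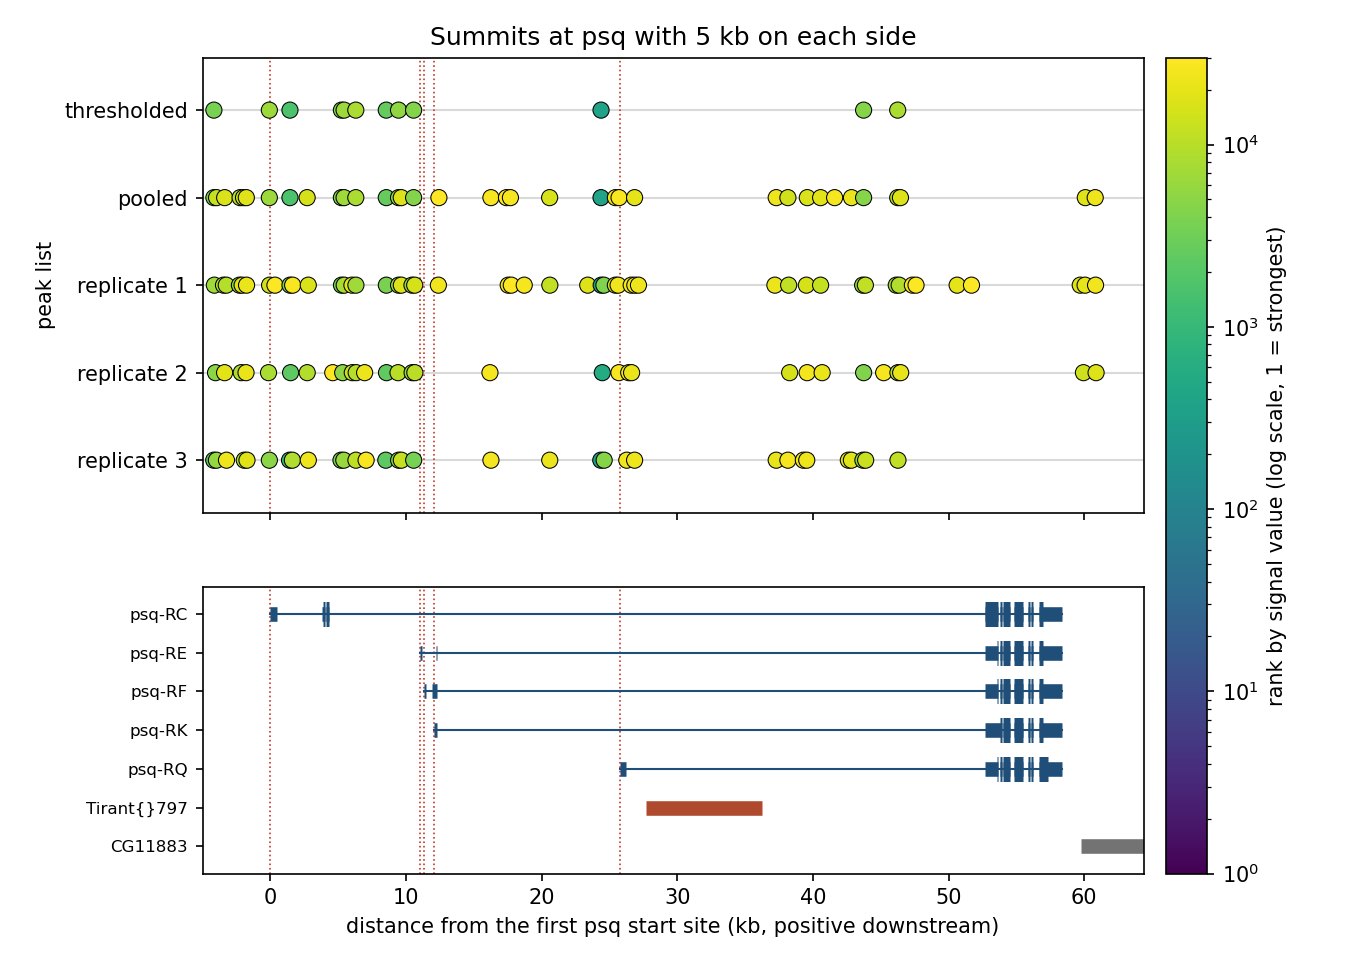
Summits at psq in each peak list (points, coloured by rank on a log scale) against distance from the first start site (kb), over 5 transcripts that represent the 5 start sites (dotted lines), with the Tirant element in red and CG11883 in grey. Of the 12 thresholded summits 7 lie between the first and the second start, and the strongest, at rank 403, stands upstream of the last start.

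The count at psq was high for its length as well. At least 12 thresholded summits within 5 kb were found at 0.366% of protein-coding genes (51 of 13945). Among 170 genes of 0.8 to 1.2 times its length, the median was 4, the highest 19, and 6.47% had at least 12. Per 10 kb scanned, psq had 1.73 summits, the same value as Trl, and the genes of like length a median of 0.545. Crowding was greatest around the summit at 10564190, with 6 other thresholded summits within 5 kb, a number that 1.76% of all thresholded summits reached. At Trl each summit had 3 others within 5 kb, as 23.5% of all did.

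Clamp (FBgn0032979) is a short gene, from 22165720 to 22169143 on 2L on the minus strand, with 2 transcripts from 1 start site at 22169143. It had no thresholded summit in the gene or within 5 kb, while 57.5% of protein-coding genes had at least 1. Among 1615 genes of 0.8 to 1.2 times its length the median was 1, and 37.4% had none. The nearest thresholded summit was 21310 bp beyond its 3' end, at rank 5043. The gene CG42748 overlaps that end, and a long non-coding RNA gene, lncRNA:CR44809, lies 525 bp upstream of the start. The flanks also hold 7 annotated transposable elements, none with a summit in any list.

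Weaker summits were present at Clamp in every replicate. The strongest of the 4 pooled summits lay at 22168728, in the first intron and 415 bp downstream of the start, at rank 9034 with a signal value of 235.4. That was 505 places below the end of the thresholded list, where the signal value just inside and just outside was 252.2. Its replicate ranks were 7515, 13288 and 9189, a mean of 9997.3 ± 2970.2 (SD, n = 3), at 16, 5 and 90 bp from the pooled summit. In replicate 1 alone the rank was inside the number of peaks that the thresholded list holds. The other pooled summits, at 22168963, 22169392 and 22173716, ranked 14520, 15956 and 27508.

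**Figure D3:**
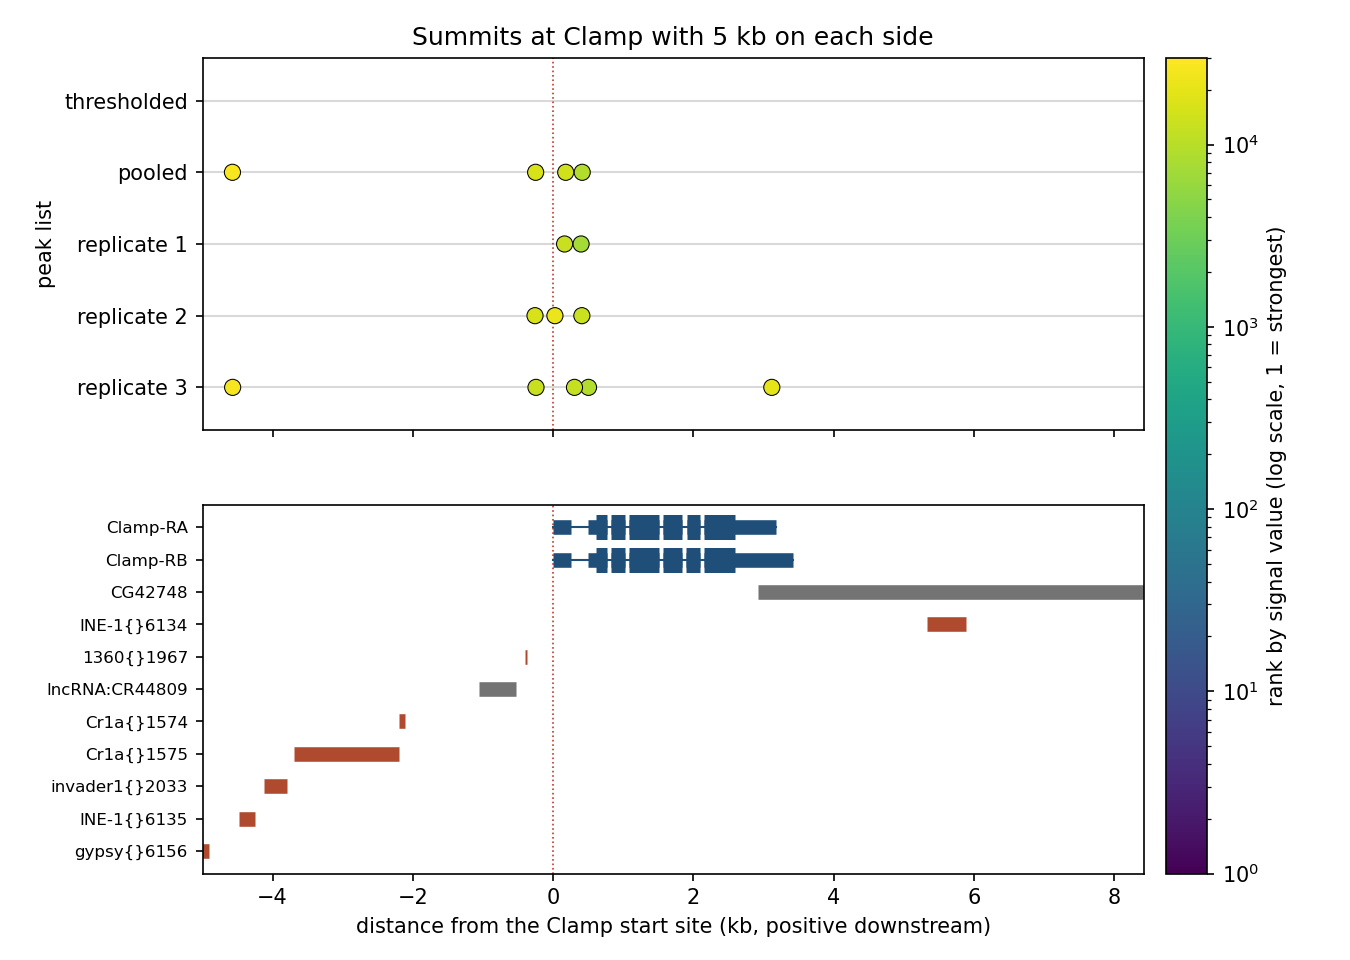
Summits at Clamp in each peak list (points, coloured by rank on a log scale) against distance from its start site (kb, dotted line), over its 2 transcripts, with neighbouring genes in grey and transposable elements in red. The thresholded row is empty, and weak summits gather within 1 kb of the start in the pooled list and in all 3 replicates.

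The share of Trl and psq summits whose place recurred in every replicate depended on the limit. A summit within 100 bp was found in all 3 replicate lists for 13 of the 16 (81.2%), compared with 88.8% of all thresholded summits. The 13 were all 4 of Trl and 9 of the 12 of psq. Within 50 bp the number was 3 of 4 for Trl and 4 of 12 for psq. With each replicate list limited to its 8529 strongest peaks it was 4 of 4 and 5 of 12. Within 200 bp, or by an overlap of peaks of 1 bp, it was 4 of 4 and 12 of 12. The share over all thresholded summits was computed only within 100 bp in the full lists. Each of the 3 psq summits not matched in all lists within 100 bp was matched in 2 lists. In the remaining list it missed that limit, at 105, 108 or 122 bp. Of the 31 pooled summits at Trl and psq below the threshold, 3 were matched in all 3 lists, all at psq. The same share over all pooled summits below the threshold was not computed. At Clamp 1 of 4 pooled summits was matched in all 3, the summit of rank 9034. The thresholded and replicate lists share their reads, so this matching is not an independent check.

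**Figure D4:**
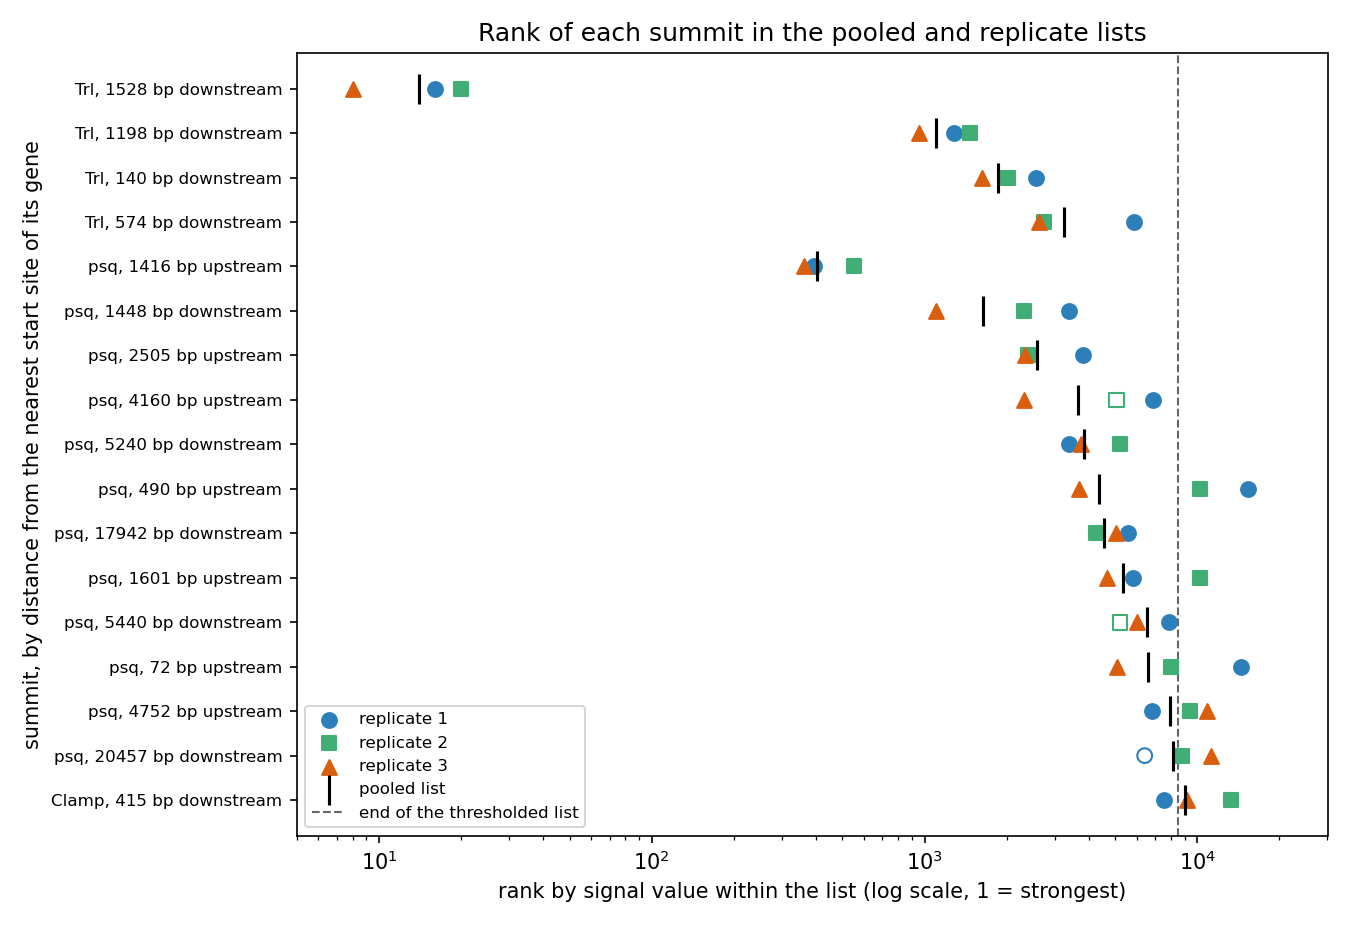
Rank by signal value (log scale) in the pooled list (black bars) and in replicates 1, 2 and 3 (points, the rank of the nearest replicate summit, open where it was over 100 bp away) for the 16 thresholded summits and the strongest Clamp summit, labelled by distance from the nearest start site of the gene. The Trl summit of rank 14 stands apart from all others, and the Clamp summit lies beside the end of the thresholded list (dashed line).

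Taking Trl and psq as a pair, 14 of the 16 summits lay inside the genes and 13 of them in an intron of at least 1 transcript. In 10 cases the summit was intronic for some transcripts and upstream of the start of others, 2 at Trl and 8 at psq, the strongest summit of each gene among them. Another 3 were in an intron of every transcript, 1 was in a 5' UTR, 2 lay upstream of the whole gene and 0 were in coding sequence. Of the 16 summits 9 were within 2 kb of a start of their gene. The same placement shares were not computed over all thresholded summits. Trl has 4 start sites and psq 5, so these counts are not read as a trait of the 16 summits.

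Within 50 bp on each side of the summit, on both strands, GAGAG was found at 0 of the 16 summits and at 8.29% of all thresholded summits. Within 100 bp on each side it was found at 1 of the 16 (6.25%), the psq summit at 10604143. The share over all thresholded summits was not computed for that wider window. The longer GAGAGAG, which holds GAGAG, was at 0 of 16 and at 0.985% of all. With so few summits a share of up to 20.6% cannot be told from 0 (exact Clopper-Pearson 95% interval, counting error only). That interval takes the 16 summits as independent, though all lie at Trl and psq and many are close neighbours. It is therefore a rough guide and not a test. Measured as distance, the nearest GAGAG was a median of 252.5 bp from the 16 summits and 252 bp from all thresholded summits. At the 4 Trl summits it was 182 to 267 bp away. At the 12 psq summits it ranged from 97 bp, at 10604143, to 1686 bp, at the strongest summit. No match in such a window says nothing on whether GAGA factor was bound there.

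The other words searched differed in how common they were over the whole list. CAGGTAG, the word of Zelda, was near 0 of 16 summits and 0.387% of all. CGATA, the word of BEAF-32, was near 0 of 16 and 12.9% of all, and TATCGATA, the word of Dref, which holds CGATA, was near 0 of 16 and 1.43% of all. A run of 7 A or 7 T was near 1 of 16, the psq summit at 10601628, and near 13.2% of all.

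GAGAG was found at some start sites of Trl and psq and at that of Clamp, with most copies at the innermost Trl start. In the window from 250 bp upstream to 50 bp downstream of the innermost Trl start, at 14757336, GAGAG matched 11 times and GAGAGAG 7 times, in the intron printed above. The window of the 14757962 start, used by 7 transcripts, held 1 GAGAG, and those of 14757779 and 14761049 held 0. The Trl summit at 14757196 lay 140 bp downstream of the innermost start, at 14757336. At psq the windows of the starts at 10568942, 10569222 and 10569954 held 2, 3 and 2 copies of GAGAG. They held 1, 2 and 0 copies of GAGAGAG, and the windows of 10568942 and 10569222 overlap in part. The windows of the first and last psq starts held 0 copies of GAGAG. The Clamp window held 1 GAGAG and 0 GAGAGAG. Over 19253 start sites of protein-coding genes, 33.2% of such windows held GAGAG and 7.65% held GAGAGAG. A match is a match of letters and was not tested as a site.

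The sequence under the summits was rich in A and T, as it was over the whole list. The median share within 50 bp of the 16 summits was 70.8%, compared with 58.1% in windows of the same size 300 bp to each side. Over all thresholded summits these medians were 70.3% and 55.4%. The summit exceeded its sides at 14 of the 16, or 87.5%, and at 83.2% of all. The exceptions were the psq summits at 10557816 and 10564190. At the strongest Trl summit the share was 69.3% and its sides held 57.9%. At the Clamp summit of rank 9034 the share was 58.4% and its sides held 65.8%.

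The genes most like each member were found by the rank of the strongest summit inside the gene, as the mean absolute log2 difference of rank over the 3 replicates, among 3239 genes with a summit inside in every replicate. For Trl these were CG1888, with a difference of 0.39, Chro, a chromatin protein of interbands (0.48), and Fkbp14, a peptidyl-prolyl isomerase (0.67). Their replicate ranks lay between 7 and 23. For psq they were PRAS40, a regulator of growth signalling (0.067), ReepA (0.11) and hth, a homeodomain partner of Hox proteins (0.13). For Clamp they were Vha13, a subunit of the vacuolar proton pump (0.07), mfrn, a mitochondrial iron carrier (0.079), and Csgalnact, a glycosyltransferase (0.087). Rank alone defines this likeness.

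Other genes of the same regulatory systems were counted in the same way. Of 10 genes for partners and cofactors of GAGA factor, 8 had a thresholded summit within 5 kb, compared with the 57.5% of all genes given above, and 6 had one within 500 bp of a start, as 26.7% of all genes did. These 6 were Cp190, a cofactor of insulators, at rank 122, dre4, a subunit of the FACT histone chaperone, at 2515, lolal, a BTB partner of GAGA factor and Pipsqueak, at 3662, corto, a chromatin protein, at 5593, Iswi, the ATPase of the NURF remodeller, at 6793, and Nurf-38, another NURF subunit, at 6979. The summit at Cp190 had start-site ranks of 138, 124 and 128 in the replicates, and that at corto 3391, 4166 and 14950.

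Of 10 other BTB transcription factors 9 had a summit within 5 kb and 2 at a start, lola at rank 616 and ab at 4880, both known from neuronal wiring. Over all genes these shares were 57.5% and 26.7%, so with 10 genes the count at a start was near the share of all genes. Of 8 other proteins that bind Polycomb response elements 6 had a summit within 5 kb and 4 at a start. These were grh, an epithelial regulator, at 1483, Adf1 at 4005, cg at 7382 and phol at 7426. Of the early embryonic factors zld, opa and grh, 2 had a summit within 5 kb, and 1 had one at a start. With 3 genes these counts are near the shares of all genes. Median counts per gene were 2, 4.5, 2 and 6 in these 4 lists, compared with 1 over all protein-coding genes. Gene length differs between the lists and was not accounted for.

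**Figure D5:**
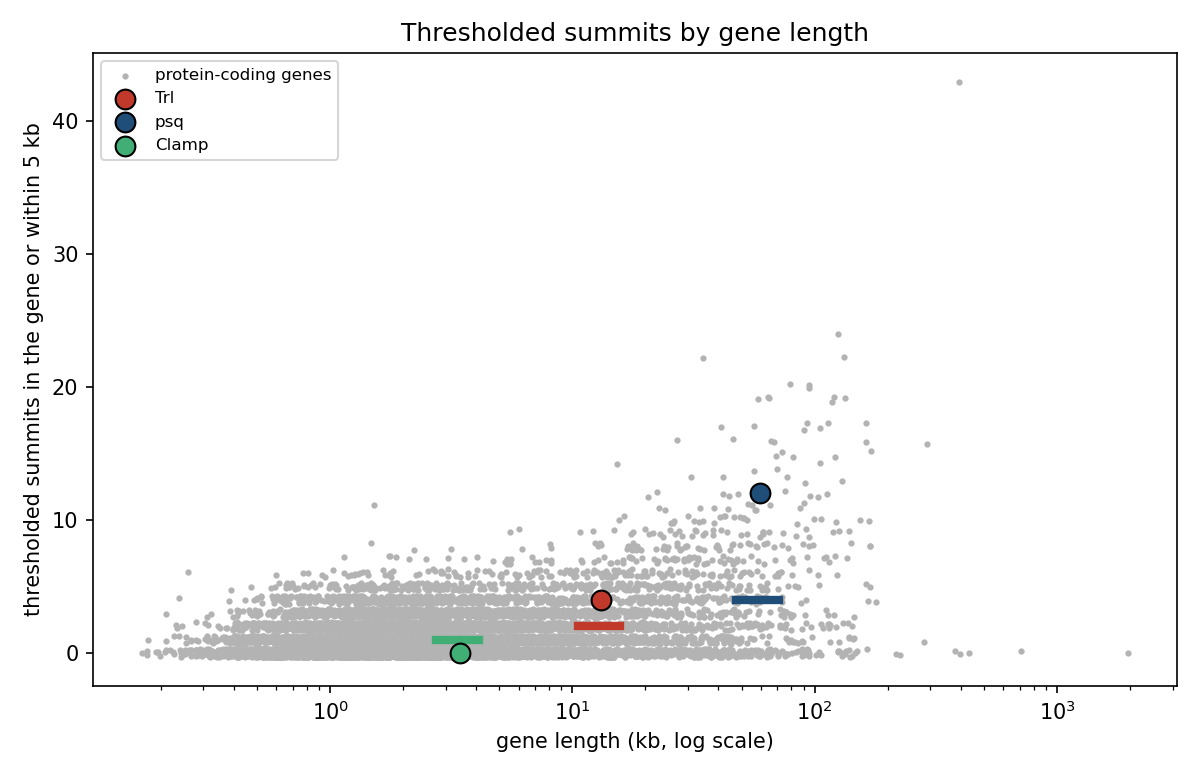
Number of thresholded summits in the gene or within 5 kb against gene length (kb, log scale) for 13945 protein-coding genes (grey points, shifted slightly up or down for visibility) and for Trl, psq and Clamp (large points), with bars at the median of genes of 0.8 to 1.2 times the length of each. Trl with 4 and psq with 12 lie above the medians of 2 and 4, and Clamp with 0 lies below the median of 1.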

How the data were processed

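Lists of ChIP-seq peaks of GFP-tagged CG18262 from embryos of 0 to 16 hours (size range 200 to 800 bp, per the labels) were analysed. The authors deposited, for each peak, its span, a signal value on an unstated scale, a −log10 q-value and a summit offset on dm6. The score column was 0 throughout and was not used, and the deposited −log10 q-value was the same, 4.38, for every thresholded peak. Neither aligner nor peak caller is given in the sources used here. The 3 replicates were listed separately and pooled by the authors.

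Genes came from the Ensembl annotation of the same assembly, and sequences from RefSeq. Coordinates are 1-based. Summits within 100 bp were called matched. Python 3.11.15, numpy 2.4.6, pandas 2.3.3 and matplotlib 3.10.9 were used, and the counting functions were tested on simulated data. No test was made, since there was 1 group.

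The genes, the 4 gene lists and the words searched were chosen with earlier results of these data known. Measures of A and T, crowding, width and the GA-repeat intron were added after the sequences and summits had been examined. Named genes were the 3 genes, their neighbours within 5 kb, listed genes with a thresholded summit within 500 bp of a start, and the 3 genes closest in rank. The labels do not say whether replicates were separate collections.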

Additional observations from a re-analysis of the deposited data

How the results depend on the processing

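Summit counts, matched counts, best ranks, counts near start sites, the share of all genes and the share with GAGAG were recomputed in 69 alternatives. The limit was 1.5 times for counts and the SD of the replicate ranks for best ranks. For the shares it was their 95% counting error. Of the 69 alternatives, 13 moved a value beyond its limit and 56 did not. The latter include GAGAG within 100 bp of a summit, at 6.25% in place of 0, which is inside the interval of 0 of 16. Some of the 56 were fixed in advance, so their number is not a measure of stability. The pooled rank equals the thresholded rank. The other rank alternatives were means of the same replicate ranks whose SD was the limit, which restricts how far they can move. At Clamp, 0 summits within 5 kb fixes 0 for smaller flanks, fewer peaks and start sites. For GAGAG, 0 within 50 bp fixes 0 in the shorter window and for GAGAGAG. The matched count of Trl could not change when a replicate was left out. Shares of A and T, crowding, widths, words at start sites, like genes, gene lists and placement had no alternative. With the whole pooled list in place of the thresholded one, the counts were 11 at Trl, 36 at psq and 4 at Clamp. With the 4000 strongest peaks psq kept 5 summits. With the 8529 strongest peaks of replicate 1, Clamp had 1. At psq 4 summits were matched in all 3 replicates within 50 bp, and 5 when the replicate lists were limited to the thresholded length. Within 1000 bp of a start Trl had 2 summits, and within 500 bp of its outermost start 0. For psq the count was 1 within 200 bp of a start and 1 for the outermost start. The share of all genes with a thresholded summit was 15.6% without flanks and 26.7% within 500 bp of a start. No paired analysis was possible because there was 1 group and no test. Leaving out a replicate moved no count by over 1.5 times. Ranking by the score column was not run, since it is constant, and Clamp had no thresholded summit to match. Depth is unknown, so an absent summit may lie below what these lists resolve.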
